A study of Mus musculus with 6 samples.

Results

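Aldehydes, alcohols and retinoids are handled in the liver by a set of enzymes that share substrates, and 41 of their genes were compared between livers of 3 WT mice and 3 β-cateninΔ(ex3)/+ mice. The genes were chosen by name as alcohol dehydrogenases, aldehyde dehydrogenases, retinol and retinaldehyde oxidoreductases, retinoid-binding and storage genes, carotenoid-cleaving enzymes and retinoic acid hydroxylases. Of the 41, 40 were found among the 31950 genes of the deposited table and *Crabp1* was not analysed here. All mice were of the strain C57BL/6 and 8 weeks of age by the labels, and the groups differed in the labelled genotype, with no further treatment named. The β-cateninΔ(ex3)/+ genotype denotes 1 β-catenin allele without exon 3, a deletion that keeps the protein from being marked for breakdown. Elsewhere in the study this deletion was made in liver with a Cre driven by the albumin promoter, with a tamoxifen-dependent form of it, or with a Cre-adenovirus injected into the tail vein. Which Cre was used for the RNA-seq mice, and whether WT mice received tamoxifen, are not given in the sources used here. Each mouse gave 1 library of poly(A) RNA from whole liver, so fewer cells of a type and less RNA per cell cannot be told apart.

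Alcohol dehydrogenases oxidise ethanol and retinol to aldehydes, and aldehyde dehydrogenases carry these on to acids, acetaldehyde to acetate and retinaldehyde to retinoic acid. Vitamin A reaches the liver as retinyl ester or as carotenoids that are cleaved to retinaldehyde, is stored as ester in hepatic stellate cells and leaves hepatocytes bound to a plasma carrier. Retinoic acid acts through nuclear receptors and is cleared by cytochromes of the CYP26 family, whose own genes are targets of retinoic acid.

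Levels are given as FPKM, a fragment number scaled by gene length and by the mapped fragments of the library, so that genes can be compared with each other. Differences are on the scale of log2(FPKM + 1), β-cateninΔ(ex3)/+ minus WT, which understates the change of genes at low FPKM. They were tested with limma over the 13243 genes with a mean of at least 0.5 FPKM, and a gene was taken as differentially expressed at a Benjamini-Hochberg adjusted p under 0.05 and a change of at least 2-fold on that scale. The FPKM hold no counts, and steps in the low values of single-exon genes gave estimated depths of 24.4 to 24.7 M fragments in WT and 17.0 to 19.6 M in β-cateninΔ(ex3)/+ libraries. Between 21.7% and 29.3% of the low values lay on such steps, so that the depths are rough.

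The tissue label was checked against 8 hepatocyte markers, of which 7 were found, and *Alb* lay between 24721 and 43342 FPKM in the 6 livers. The groups also differed in ways the labels do not state. All 5 listed genes of the young liver, such as *Afp* and *Igf2*, were lower in β-cateninΔ(ex3)/+ livers, with summed levels of 3813 to 3880 FPKM in WT and 3.98 to 4.39 FPKM in β-cateninΔ(ex3)/+ livers. *Xist*, transcribed from an inactive X chromosome, was at 20.3 to 22.2 FPKM in WT and at most 0.0146 FPKM in β-cateninΔ(ex3)/+ livers. Each of the 4 Y-linked genes went the other way, and 7 of 7 male-biased liver genes tested were higher. Of 8 female-biased liver genes 5 were lower and 2 higher past both thresholds. Genotype therefore cannot be told apart from the sex, or from the stage of liver maturity, that these genes track. Every difference below is between these 2 sets of livers.

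Of the 40 genes, 35 passed the filter on low values and were tested. In β-cateninΔ(ex3)/+ livers 9 of them were differentially expressed and higher and 6 lower, where 8.17% and 4.52% of all genes tested were. *Aldh1a1*, *Cyp26a1*, *Aldh1a7*, *Adh4* and *Rdh11* had the largest increases, and *Aldh1b1*, *Lrat* and *Ttr* the largest decreases on the log2(FPKM + 1) scale. By the ratio of mean FPKM, *Cyp26b1*, a gene at low FPKM, fell the most of the tested genes, 13.5-fold. At an adjusted p under 0.05 and any fold, 29 of the 35 passed, beside 57.0% of all genes. These were 20 higher and 9 lower, beside 37.4% and 19.6% of all genes. In 30 of the 35 the 2 groups of livers did not overlap, as in 66.0% of all genes tested. The median difference of the 35 genes was 0.15, near the 0.14 of all genes. Replicates lay close together, with a median coefficient of variation of 4.47% in WT and 3.30% in β-cateninΔ(ex3)/+ livers, where all genes tested had 9.44% and 8.84%. Many of these genes are abundant, and their spread was not compared with that of genes at like levels. Since 3 livers were compared with 3, an exact permutation test of a single gene cannot go below p = 0.1.

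**Figure D1:**
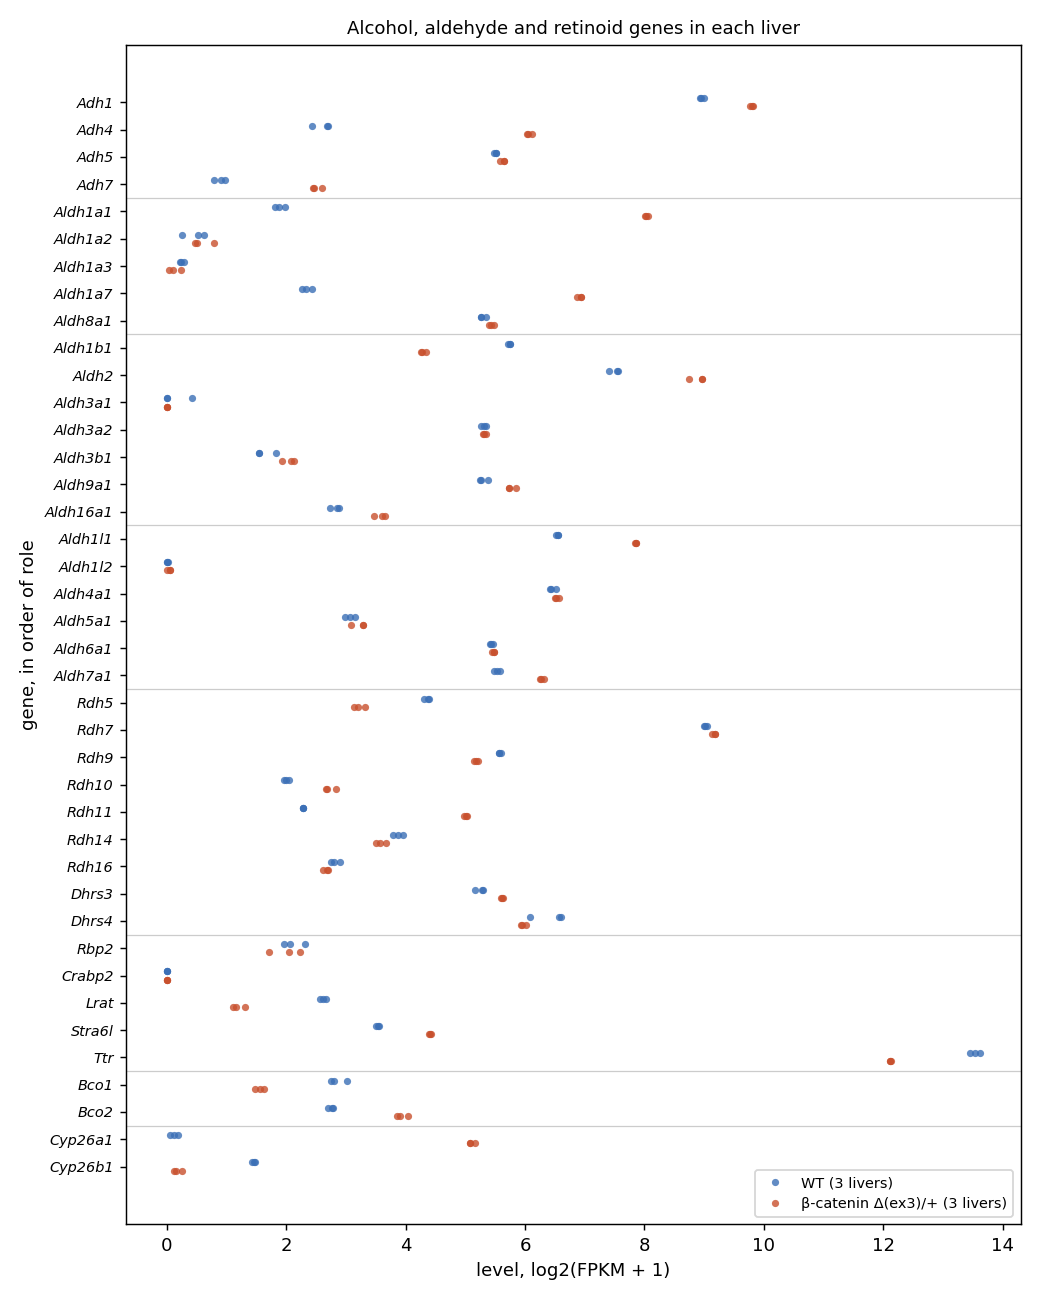
Level of each of the 40 genes in each liver, as log2(FPKM + 1), with 1 point per liver, WT in blue and β-cateninΔ(ex3)/+ in red; grey lines part the roles, from alcohol dehydrogenases at the top to retinoic acid hydroxylases at the bottom. *Aldh1a1*, *Aldh1a7*, *Adh4*, *Rdh11* and *Cyp26a1* lie well to the right in β-cateninΔ(ex3)/+ livers, and *Ttr* is the most abundant of these genes in both groups.

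The 4 medium-chain alcohol dehydrogenases were all higher in β-cateninΔ(ex3)/+ livers, *Adh4* and *Adh7* past both thresholds and *Adh5* by an amount that changed sign with the scaling. *Adh1*, the main ethanol- and retinol-oxidising enzyme of hepatocytes, was at 489, 508 and 493 FPKM in the 3 WT livers, in order of replicate number as in all that follows, and at 906, 875 and 891 FPKM in the 3 β-cateninΔ(ex3)/+ livers. Its groups were far apart for their spread, yet the difference of 0.84 (SE 0.027, limma adjusted p = 2.71e-06) stayed under 2-fold. *Adh4*, which also oxidises retinol and longer alcohols, rose from 5.47, 4.40 and 5.42 FPKM to 64.3, 65.5 and 68.6 FPKM, a difference of 3.47 (SE 0.081, limma adjusted p = 6.73e-07). In the deposited table it went from a minor gene in all WT livers, at rank 4649 of all genes by mean FPKM, to rank 709. *Adh7*, the stomach-type enzyme with high activity on retinol, was low throughout, at 0.719, 0.955 and 0.883 FPKM in WT and 4.47, 4.50 and 5.04 FPKM in β-cateninΔ(ex3)/+ livers, a difference of 1.61 (SE 0.076, limma adjusted p = 1.33e-05). The antisense gene *0610031O16Rik* lies over *Adh7* on the other strand and went from at most 0.176 FPKM in WT to between 10.5 and 11.1 FPKM. The libraries keep strand, but the strand setting of the counting is not given in the sources used here, so fragments of these 2 genes cannot be told apart. *Adh5*, the glutathione-dependent formaldehyde dehydrogenase found in all tissues, had 43.4, 44.6 and 44.4 FPKM and 48.8, 47.0 and 49.1 FPKM, a difference of 0.13 (SE 0.035, limma adjusted p = 0.0227) that became negative with median-ratio scaling or quantile normalization.

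The summed level of the 4 genes went from 547 ± 10.1 FPKM to 1009.8 ± 16.2 FPKM between WT and β-cateninΔ(ex3)/+ livers (SD, n = 3). *Adh1* made up most of it in both, with shares of 90.8% ± 0.196 and 88.2% ± 0.317 (SD over 3 livers, here and for all shares). The share of *Adh4* went from 0.933% ± 0.126 to 6.55% ± 0.249, and that of *Adh5* from 8.07% ± 0.0935 to 4.78% ± 0.0586. All 4 genes lie side by side on chromosome 3 on the plus strand, in the order *Adh7*, *Adh1*, *Adh4* and *Adh5* between 138217760 and 138455499, with *Adh6a* and *Adh6b* between *Adh1* and *Adh4*. A gap of 19.1 kb parts *Adh4* from *Adh5*, the genes of the largest and the smallest difference of the 4.

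*Aldh1a1* and its neighbour *Aldh1a7* rose more than any other gene grouped with the retinaldehyde dehydrogenases. Enzymes of this type make retinoic acid, which is not claimed here for the *Aldh1a7* product. *Aldh1a1* was at 2.67, 2.502 and 2.95 FPKM in WT and 257, 267 and 261 FPKM in β-cateninΔ(ex3)/+ livers, a difference of 6.15 (SE 0.054, limma adjusted p = 1.83e-08). This took it from rank 6815 to rank 189 of all genes, 96.6 times the WT mean. *Aldh1a7*, a rodent copy of *Aldh1a1* with activity on other aldehydes, went from 3.82, 4.40 and 4.01 FPKM to 116, 122 and 122 FPKM, a difference of 4.58 (SE 0.054, limma adjusted p = 5.24e-08). *Aldh8a1*, which takes 9-cis retinaldehyde and intermediates of tryptophan breakdown, had 37.4, 39.6 and 37.6 FPKM in WT and 41.02, 43.6 and 42.3 FPKM in β-cateninΔ(ex3)/+ livers. Its difference of 0.14 (SE 0.042, limma adjusted p = 0.0282) turned negative with median-ratio scaling and with quantile normalization. *Aldh1a2* and *Aldh1a3*, the retinoic acid-forming enzymes of the embryo, lay under the filter. *Aldh1a2* had 0.428, 0.530 and 0.187 FPKM and 0.734, 0.412 and 0.380 FPKM and *Aldh1a3* 0.167, 0.223 and 0.176 FPKM and 0.0301, 0.0768 and 0.171 FPKM, with overlapping groups in both (two-sided exact permutation test, p = 0.6 and 0.2).

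In WT livers *Aldh8a1* made up 83.9% ± 0.203 of the summed FPKM of these 5 genes, *Aldh1a7* 8.94% ± 0.364 and *Aldh1a1* 5.96% ± 0.643. In β-cateninΔ(ex3)/+ livers *Aldh1a1* made up 61.6% ± 0.303, *Aldh1a7* 28.3% ± 0.309 and *Aldh8a1* 9.96% ± 0.0976. The sum, *Aldh1a7* included, went from 45.5 ± 1.49 to 424 ± 8.80 FPKM (SD, n = 3).

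*Aldh1a1* and *Aldh1a7* lie 49.5 kb apart on chromosome 19 on opposite strands, with no coding gene between them. Their longest open reading frames in GENCODE M21 transcripts are both 1506 bases long and 91.6% identical. Of the 50-base windows of the whole *Aldh1a1* transcript that holds this frame, 6.54% occur unchanged in that of *Aldh1a7*. The fragments of such windows could have been split between them, so the level of each is uncertain by an amount that was not measured. The 250 bases before the annotated starts of both genes (RefSeq, GRCm38.p6) are shown because these copies rose together. Capitals mark CTTTGA or its reverse complement. These letters are a form of the core of the sites bound by the TCF/LEF partners of β-catenin, and other forms were not searched. *Aldh1a1* has an upstream start, at chr19:20492333-20492582 (plus strand), and a downstream start, at chr19:20601718-20601967 (plus strand). The *Aldh1a7* stretch is chr19:20727557-20727806 (minus strand).
Aldh1a1 upstream: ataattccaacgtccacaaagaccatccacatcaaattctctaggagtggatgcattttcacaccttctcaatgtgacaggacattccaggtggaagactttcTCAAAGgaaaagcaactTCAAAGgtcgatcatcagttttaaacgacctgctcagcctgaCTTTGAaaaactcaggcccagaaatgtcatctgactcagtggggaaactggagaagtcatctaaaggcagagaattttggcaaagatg
Aldh1a1 downstream: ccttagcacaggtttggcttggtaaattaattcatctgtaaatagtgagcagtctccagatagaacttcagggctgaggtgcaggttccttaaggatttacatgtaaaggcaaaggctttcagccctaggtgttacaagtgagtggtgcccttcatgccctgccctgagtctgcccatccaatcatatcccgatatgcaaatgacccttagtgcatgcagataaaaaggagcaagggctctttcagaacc
Aldh1a7: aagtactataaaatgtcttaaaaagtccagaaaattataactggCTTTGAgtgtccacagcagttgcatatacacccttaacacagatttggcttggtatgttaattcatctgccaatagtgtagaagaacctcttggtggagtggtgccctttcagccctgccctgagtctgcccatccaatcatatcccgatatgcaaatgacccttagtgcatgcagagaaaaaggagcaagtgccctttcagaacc
The upstream *Aldh1a1* stretch held 3 matches and the *Aldh1a7* stretch 1, and no match was found before the downstream *Aldh1a1* start. Aligned end to end, the downstream *Aldh1a1* and the *Aldh1a7* stretches were 65.3% identical.

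**Figure D2:**
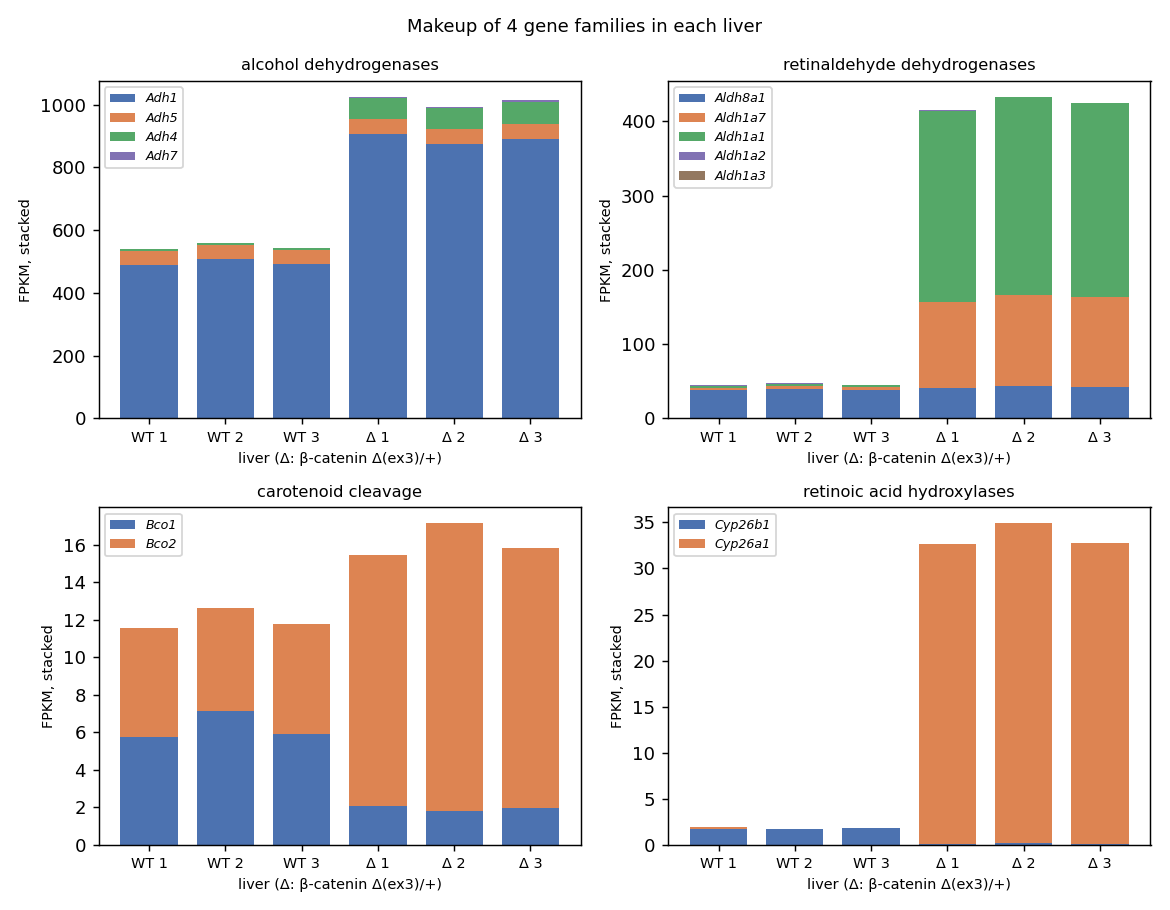
Summed FPKM of 4 gene families in each of the 6 livers, stacked by gene; bars start at 0 and each liver is 1 bar. *Adh1* fills most of the alcohol dehydrogenase bars in both groups, whereas the gene with the highest mean FPKM differs between WT and β-cateninΔ(ex3)/+ livers in the other 3 panels, with *Bco1* and *Bco2* nearly equal in WT.

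The mitochondrial enzymes that oxidise acetaldehyde moved in opposite directions. *Aldh2*, the main acetaldehyde dehydrogenase, was at 186, 169 and 187 FPKM in WT and 499.5, 427 and 496 FPKM in β-cateninΔ(ex3)/+ livers. The second replicate was the lowest of each group, and the difference of 1.38 (SE 0.075, limma adjusted p = 2.33e-05) passed both thresholds. *Aldh1b1*, its mitochondrial paralog, fell from 53.0, 51.3 and 52.8 FPKM to 18.2, 19.2 and 18.3 FPKM, a difference of -1.45 (SE 0.039, limma adjusted p = 1.2e-06). Of the summed FPKM of the pair, *Aldh1b1* held 22.5% ± 0.666 in WT and 3.79% ± 0.443 in β-cateninΔ(ex3)/+ livers. Their reading frames are 69.4% identical, and the whole transcripts that hold these frames share no 50-base window.

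Other aldehyde dehydrogenases of lipid and amine aldehydes differed by less. *Aldh16a1*, a family member thought to lack catalytic activity, rose by 0.76 (SE 0.072, limma adjusted p = 0.00027) from 6.35, 5.63 and 6.23 FPKM to 11.2, 11.7 and 10.1 FPKM. *Aldh9a1*, which acts in carnitine synthesis, and *Aldh3b1*, an enzyme of lipid aldehydes, rose by 0.48 and 0.41 (limma adjusted p = 0.000611 and 0.0156). The adjusted p of *Aldh3b1* was 0.0666 with median-ratio scaling, 0.0846 with quantile normalization and 0.0518 without either WT replicate 3 or β-cateninΔ(ex3)/+ replicate 1. *Aldh3a2*, the fatty aldehyde dehydrogenase, had 38.7, 39.6 and 37.2 FPKM in WT and 38.8, 38.0 and 39.7 FPKM in β-cateninΔ(ex3)/+ livers, with overlapping groups and a difference of 0.014 (SE 0.04, limma adjusted p = 0.786). *Aldh3a1*, the corneal and inducible form next to it on chromosome 11, was listed at 0.335 FPKM in WT replicate 1 and at 0 in the other 5 livers.

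Of the aldehyde dehydrogenases of folate and amino acid breakdown, *Aldh1l1* alone passed both thresholds. *Aldh1l1*, the cytosolic 10-formyltetrahydrofolate dehydrogenase, was at 90.8, 92.4 and 92.7 FPKM in WT and 231, 228 and 232 FPKM in β-cateninΔ(ex3)/+ livers, a difference of 1.32 (SE 0.027, limma adjusted p = 3.74e-07). Its mitochondrial paralog *Aldh1l2* was at most 0.0326 FPKM in any liver. *Aldh7a1*, which breaks down lysine, rose by 0.75 (SE 0.041, limma adjusted p = 2.52e-05) from 45.1, 43.7 and 47.0 FPKM to 79.1, 76.0 and 75.3 FPKM, a change under 2-fold. The genes for the breakdown of proline (*Aldh4a1*), γ-aminobutyrate (*Aldh5a1*) and valine (*Aldh6a1*) had overlapping groups, with differences of 0.076, 0.15 and 0.034 (limma adjusted p = 0.135, 0.145 and 0.426). With quantile normalization *Aldh3a2*, *Aldh4a1* and *Aldh6a1* had differences of -0.24, -0.20 and -0.21 (limma adjusted p = 0.00636, 0.0082 and 0.00609), so their direction depends on the scaling. Over the 18 aldehyde dehydrogenase genes, the summed level was 637 ± 4.63 FPKM in WT and 1474 ± 35.9 FPKM in β-cateninΔ(ex3)/+ livers (SD, n = 3).

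**Figure D3:**
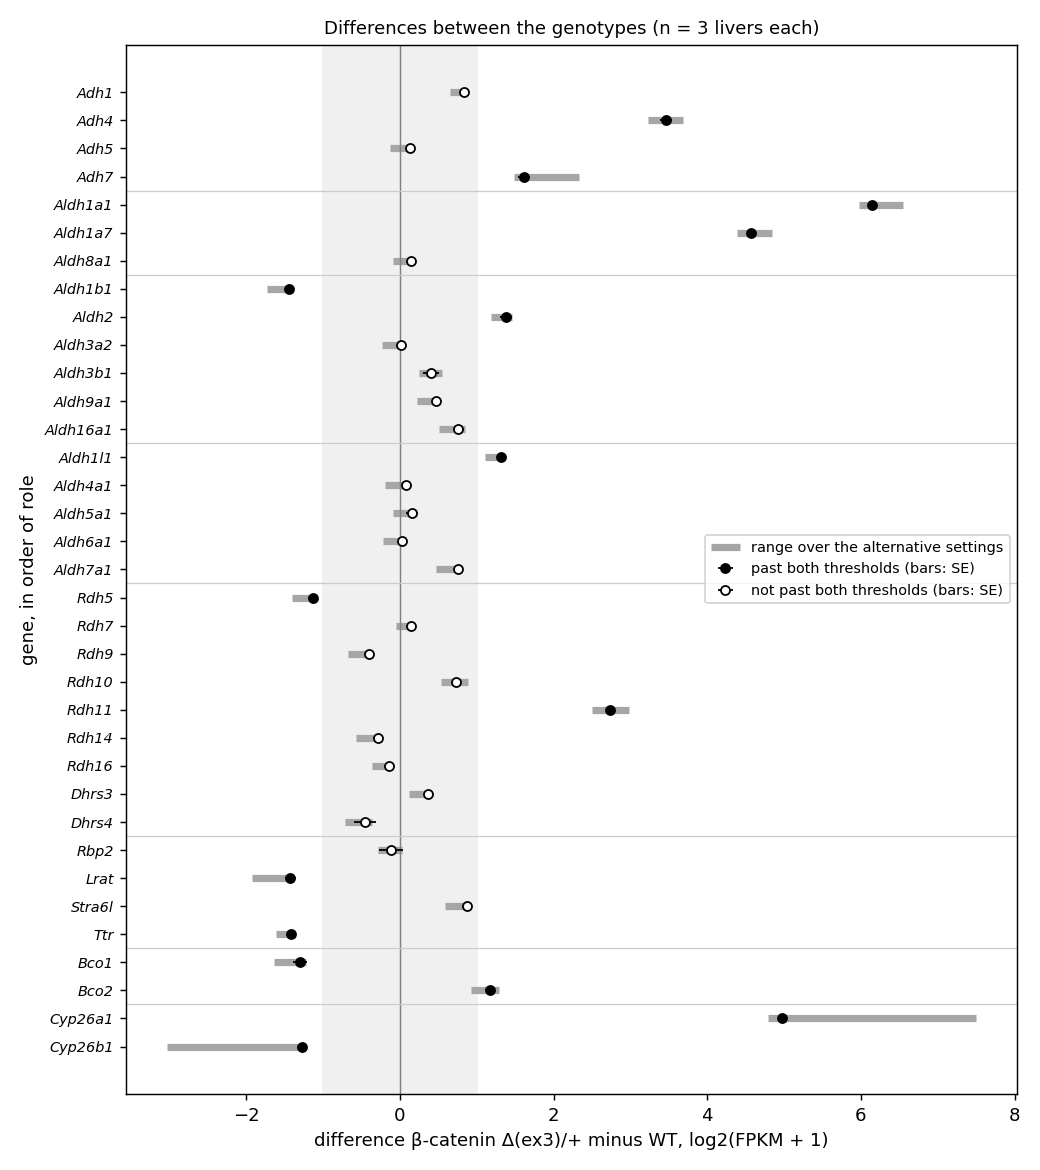
Difference between β-cateninΔ(ex3)/+ and WT livers in log2(FPKM + 1) for the 35 genes tested, ordered by role, with SE bars from limma (n = 3 livers each); filled points passed both thresholds, the shaded band is under 2-fold, and thick grey lines span the value over the alternative settings. The grey lines of the 15 filled points stay on 1 side of 0, and those of *Cyp26a1* and *Cyp26b1* are the longest.

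The 9 genes that interconvert retinol and retinaldehyde did not move together. *Rdh11*, a reductase and dehydrogenase of the endoplasmic reticulum, had 3.83, 3.84 and 3.85 FPKM in WT and 30.6, 31.5 and 31.4 FPKM in β-cateninΔ(ex3)/+ livers, a difference of 2.73 (SE 0.039, limma adjusted p = 9.89e-08). The 3 WT livers were nearly equal, with a coefficient of variation of 0.228%. *Rdh5*, the 11-cis retinol dehydrogenase of the eye that is also made in liver, fell from 19.9, 18.8 and 19.7 FPKM to 8.19, 9.02 and 7.79 FPKM, a difference of -1.13 (SE 0.062, limma adjusted p = 2.39e-05). It overlaps *Bloc1s1* on the same strand, which was at 51.6 to 54.6 FPKM in WT and 42.5 to 48.6 FPKM in β-cateninΔ(ex3)/+ livers. Under 2-fold, *Rdh10*, which makes retinaldehyde from retinol, rose by 0.72 (SE 0.064, limma adjusted p = 0.000203) and *Dhrs3*, which returns retinaldehyde to retinol, by 0.37 (SE 0.045, limma adjusted p = 0.000818). *Rdh14*, a related dehydrogenase, had a difference of -0.29 (limma adjusted p = 0.0103).

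*Dhrs4*, a peroxisomal reductase, was at 66.4, 94.3 and 96.4 FPKM in WT and 60.2, 60.4 and 63.8 FPKM in β-cateninΔ(ex3)/+ livers. The first WT liver lay well below the other two, and the difference was -0.45 (SE 0.15, limma adjusted p = 0.0378). Its adjusted p ranged from 0.000371 to 0.106 over the alternative settings, and without WT replicate 1 the difference was -0.63 (limma adjusted p = 0.000371).

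*Rdh7*, *Rdh9* and *Rdh16* form a cluster of short-chain dehydrogenases of retinol and steroids on chromosome 10. *Rdh7* was the most abundant gene of the role, at 509, 525 and 515 FPKM in WT and 578, 578 and 559 FPKM in β-cateninΔ(ex3)/+ livers, and held 70.6% ± 1.35 and 73.5% ± 0.485 of the summed FPKM of the 9 genes. Its difference of 0.15 (SE 0.027, limma adjusted p = 0.00447) turned negative with both median-ratio scaling and quantile normalization. *Rdh9* fell from 47.3, 46.4 and 46.4 FPKM to 35.1, 34.5 and 36.0 FPKM, a difference of -0.40 (SE 0.034, limma adjusted p = 0.00018). *Rdh16* had 5.74, 6.46 and 5.93 FPKM and 5.14, 5.48 and 5.44 FPKM, a difference of -0.15 (SE 0.059, limma adjusted p = 0.0759) that became -0.31 with median-ratio scaling, -0.36 with quantile normalization and -0.23 as TPM (limma adjusted p = 0.00665, 0.00408 and 0.0229). *Rdh16f2*, a further gene of the cluster that was listed among the other retinoid genes, rose from 46.9, 53.1 and 49.2 FPKM to 138, 140.1 and 132 FPKM, a difference of 1.44 (SE 0.054, limma adjusted p = 4.98e-06). Reading frames of *Rdh9* were 96.3% identical to *Rdh16* and 91.6% identical to *Rdh16f2*. Of the 50-base windows of the whole *Rdh9* transcript, 14.8% occur in that of *Rdh16*. In GENCODE M21 *Rdh9* is also overlapped by *Rdh16f1*, which is not analysed here. The levels of these copies are therefore uncertain where fragments could be split. Summed over the 9 genes, the level was 732 ± 22.5 FPKM in WT and 778 ± 9.37 FPKM in β-cateninΔ(ex3)/+ livers (SD, n = 3), a ratio of 1.06. The ranges of this sum did not overlap, as was so for 66.0% of all single genes tested. *Rdh7* held most of the sum, and the sum was not taken under the other scalings.

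*Lrat* and *Ttr*, genes of the storage and the plasma transport of retinol, fell in β-cateninΔ(ex3)/+ livers. *Lrat*, which esterifies retinol for storage, was at 4.91, 5.36 and 5.14 FPKM in WT and 1.46, 1.16 and 1.23 FPKM in β-cateninΔ(ex3)/+ livers, a difference of -1.43 (SE 0.072, limma adjusted p = 1.69e-05). In liver it is known as a gene of stellate cells, and markers of these cells moved with it. All 10 stellate markers tested were lower, with a median difference of -1.11, none of the markers was at 0, and the summed level of all 11 was 188 to 194 FPKM in WT and 71.2 to 82.7 FPKM in β-cateninΔ(ex3)/+ livers. Taken as a percentage of that sum, *Lrat* was 2.67% ± 0.0764 in WT and 1.69% ± 0.315 in β-cateninΔ(ex3)/+ livers, without overlap between groups. The part of the stellate markers in this decrease was not tested. At any fold, markers of sinusoidal endothelial cells (7 of 7 tested) and of erythroid cells (6 of 6) were also lower. Kupffer cell markers were higher in 5 and lower in 1 of 6, cholangiocyte markers lower in 2 of 4 and periportal markers higher in 5 and lower in 2 of 8. Beside these counts and that of the stellate markers, 37.4% of all genes tested were higher and 19.6% lower at any fold.

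**Figure D4:**
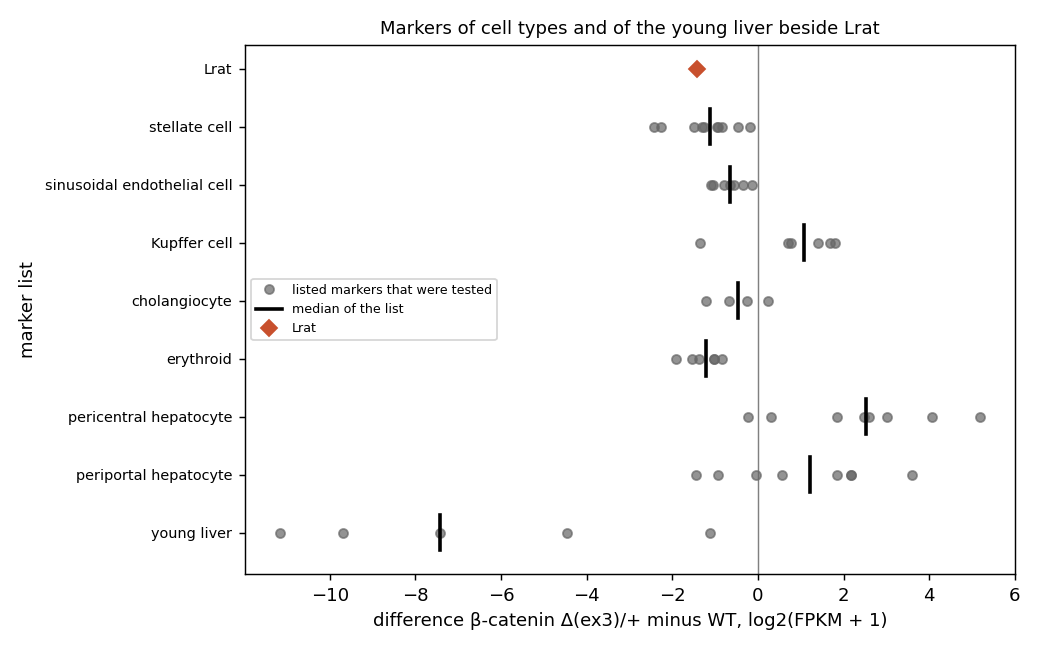
Difference between β-cateninΔ(ex3)/+ and WT livers in log2(FPKM + 1) for the tested genes of 8 marker lists, 1 point per gene and a bar at the median of each list, with *Lrat* as a diamond at the top. *Lrat*, at -1.43, lies among the stellate markers, while the young liver genes reach the lowest values and most pericentral markers lie above 0.

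*Ttr*, which encodes the plasma protein that carries the retinol-binding protein and thyroxine, was the fourth most abundant gene of WT livers. It was at 11816, 12571 and 11202 FPKM in WT and 4445, 4426 and 4458 FPKM in β-cateninΔ(ex3)/+ livers, a difference of -1.41 (SE 0.042, limma adjusted p = 1.93e-06). Its rank by mean FPKM went from 4 to 20. *Rbp4*, the retinol carrier in plasma that travels with it, had 2671, 2572 and 2720.0 FPKM and 1844, 1905 and 1894 FPKM, a difference of -0.50 (SE 0.029, limma adjusted p = 3.1e-05). Of the 7 hepatocyte markers tested, 2 were higher and 4 lower at any fold, beside 37.4% and 19.6% of all genes. Their median difference was -0.25. *Stra6l*, a receptor that takes up retinol from its plasma carrier in liver, rose from 10.3, 10.6 and 10.8 FPKM to 20.5, 20.0 and 20.2 FPKM. The difference of 0.88 (SE 0.04, limma adjusted p = 1.11e-05) stayed under 2-fold. It lies 44.1 kb from *Aldh1b1* on chromosome 4, and these neighbours moved in opposite directions. *Rbp2*, the intestinal retinol-binding protein gene, had 3.16, 3.96 and 2.89 FPKM and 3.10, 3.69 and 2.27 FPKM with overlapping groups, a difference of -0.12 (SE 0.16, limma adjusted p = 0.562). *Crabp2*, a binding protein of retinoic acid, was listed at 0 in all 6 livers.

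The enzymes that cleave carotenoids moved in opposite directions. *Bco1*, which cleaves β-carotene in the middle to retinaldehyde, fell from 5.74, 7.11 and 5.92 FPKM to 2.07, 1.77 and 1.96 FPKM, a difference of -1.30 (SE 0.089, limma adjusted p = 6.52e-05). *Bco2*, the mitochondrial enzyme that cleaves off centre, rose from 5.82, 5.50 and 5.86 FPKM to 13.4, 15.4 and 13.9 FPKM, a difference of 1.18 (SE 0.063, limma adjusted p = 2.31e-05). The genes stood near equal in WT livers, where *Bco1* held 52.1% ± 3.72 of their sum, against 12.0% ± 1.56 in β-cateninΔ(ex3)/+ livers. With quantile normalization the difference of *Bco2* was 0.93, under 2-fold. *Bco2* overlaps *Il18* on the other strand, which had 6.72 to 8.77 FPKM in WT and 8.67 to 12.2 FPKM in β-cateninΔ(ex3)/+ livers.

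Of the retinoic acid hydroxylases, *Cyp26a1* rose and *Cyp26b1* fell. *Cyp26a1* was at 0.143, 0.0411 and 0.0825 FPKM in WT and 32.6, 34.7 and 32.6 FPKM in β-cateninΔ(ex3)/+ livers, a difference of 4.98 (SE 0.058, limma adjusted p = 4.99e-08). *Cyp26b1*, the form that prevails in many tissues outside the liver, went from 1.75, 1.68 and 1.77 FPKM to 0.0842, 0.195 and 0.106 FPKM, a difference of -1.28 (SE 0.064, limma adjusted p = 1.7e-05). It held 95.2% ± 2.60 of the summed FPKM of the pair in WT and 0.380% ± 0.159 in β-cateninΔ(ex3)/+ livers. The sum went from 1.82 ± 0.0870 FPKM to 33.4 ± 1.26 FPKM (SD, n = 3). Since 1 of the genes is near 0 in each group, the size of both differences depends on the pseudocount, and with 0.1 in place of 1 they were 7.50 and -3.03. *Cyp26c1*, the third gene of the family and a listed pathway gene, was at 0 in every WT liver and at 0.307 to 0.519 FPKM in β-cateninΔ(ex3)/+ livers.

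The 250 bases before the annotated *Cyp26a1* start (RefSeq, GRCm38.p6, chr19:37697558-37697807, plus strand) are shown because this gene is a textbook target of retinoic acid receptors. The sequence was chosen after the values were seen. Capitals mark a direct repeat: GTTCA, 6 free bases and GTTCA again, read on either strand, which is a pair of hexamers with a free first base and 5 bases between them.
Cyp26a1: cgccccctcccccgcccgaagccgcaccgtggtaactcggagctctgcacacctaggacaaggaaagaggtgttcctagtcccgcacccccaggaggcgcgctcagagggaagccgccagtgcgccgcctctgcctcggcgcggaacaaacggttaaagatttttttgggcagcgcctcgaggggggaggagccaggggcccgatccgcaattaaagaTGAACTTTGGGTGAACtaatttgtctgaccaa
The match lies on the minus strand, from position -32 to -17 from the start, and has the letters of a common form of the retinoic acid response element. The repeat was found in 22 of 32851 promoters, or 0.0670%, and among the genes described here in *Cyp26a1* alone of the 32 with an entry. No match says only that the letters are not in the window.

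The letters CTTTGA, on either strand, were in 4544 of the 32851 promoter stretches of the same length, or 13.8%, and in 13 of the 41 stretches of these genes, or 31.7%. The 12 genes that held them were all tested, and 4 of these were higher and 2 lower past both thresholds. Of the 19 tested genes with an entry but no match, 4 were higher and 3 lower. Among all genes tested, with or without the letters, 8.17% were higher and 4.52% lower. A link between the letters and the changes was not tested. Matches were found before *Aldh1a1*, *Aldh1a7*, *Rdh11* and *Bco2*, which rose, before *Aldh1b1* and *Bco1*, which fell, and before 6 genes with changes under 2-fold, such as *Rdh7* and *Aldh6a1*.

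**Figure D5:**
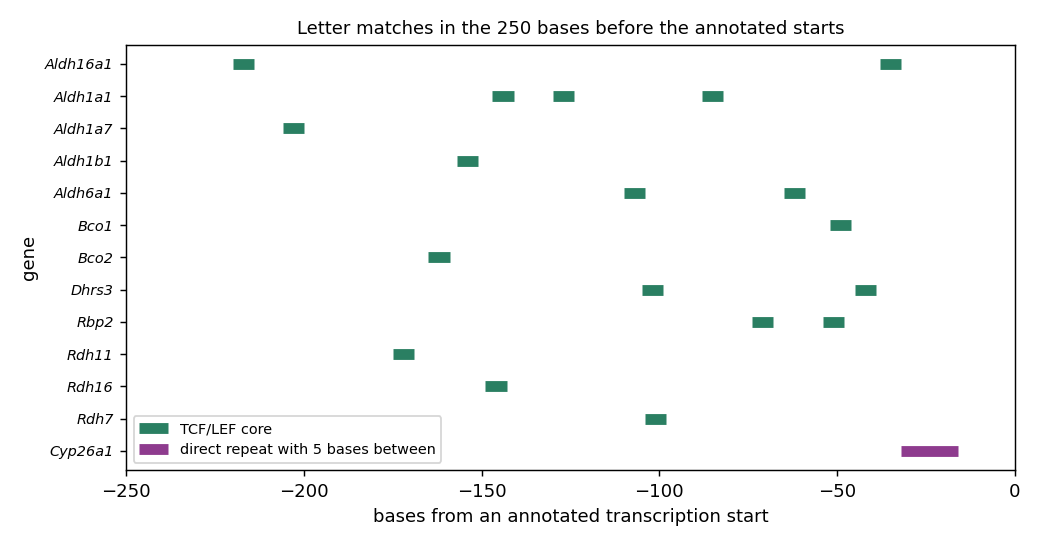
Position of the letter matches in the 250 bases before the annotated starts, in bases from the start, for the 13 genes with a match on either strand; green marks CTTTGA and purple the direct repeat, and genes with more than 1 start share a row. The 3 matches of *Aldh1a1* lie between positions -147 and -83 from its upstream start, and the repeat of *Cyp26a1* is the closest to a start of all.

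The other genes of these pathways were taken from lists of 25 retinoid genes and 21 alcohol and aldehyde genes, of which 36 in all were tested. Of these, 5 were differentially expressed and higher and 2 lower, beside the 8.17% and 4.52% of all genes tested, and their median difference was 0.19, beside 0.14 for all genes. *Acss2*, which makes acetyl-CoA from the acetate that aldehyde oxidation leaves, was at 1.05, 1.19 and 1.15 FPKM in WT and 23.3, 23.7 and 22.4 FPKM in β-cateninΔ(ex3)/+ livers, a difference of 3.50 (SE 0.052, limma adjusted p = 1.13e-07). *Xdh* and *Aox1*, molybdenum enzymes that also oxidise aldehydes, rose by 2.87 (SE 0.048, limma adjusted p = 1.8e-07) and 1.84 (SE 0.062, limma adjusted p = 3.22e-06). *Xdh* went from 2.35, 2.58 and 2.57 FPKM to 24.4, 25.2 and 24.3 FPKM, and *Aox1* from 0.846, 0.905 and 0.984 FPKM to 6.01, 5.99 and 5.47 FPKM. *Hsd17b6*, a steroid and retinol dehydrogenase, fell from 44.3, 46.2 and 46.1 FPKM to 3.18, 5.90 and 4.81 FPKM, a difference of -3.08 (SE 0.18, limma adjusted p = 3.19e-05). *Akr1b7*, an aldo-keto reductase, fell from 17.8, 18.5 and 17.0 FPKM to 2.36, 1.93 and 2.35 FPKM, a difference of -2.55 (SE 0.073, limma adjusted p = 1.56e-06).

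Nuclear receptors of retinoids were among the listed genes, and *Rara*, the α receptor of retinoic acid, was the other gene past both thresholds, with 2.47, 2.26 and 3.45 FPKM in WT and 6.76, 6.35 and 6.34 FPKM in β-cateninΔ(ex3)/+ livers and a difference of 1.02 (SE 0.12, limma adjusted p = 0.000758). The difference of *Rara* lies close to the 2-fold threshold, and its values under the alternative settings are not given here. *Rxra*, the partner receptor, rose by 0.80 (SE 0.033, limma adjusted p = 7.97e-06), under 2-fold. *Rarb* lay under the filter, with 0.531, 0.514 and 0.476 FPKM in WT and 0.172, 0.172 and 0.359 FPKM in β-cateninΔ(ex3)/+ livers. *Cyp2e1*, the ethanol-oxidising cytochrome of pericentral hepatocytes, was lower by a small amount, with a difference of -0.23 (SE 0.053, limma adjusted p = 0.0112), while 6 of the 8 pericentral markers, such as *Glul* and *Oat*, were higher past both thresholds. The summed level of the pericentral markers was 1731 to 1943 FPKM in WT and 3085 to 3123 FPKM in β-cateninΔ(ex3)/+ livers. Of the 8 periportal markers, 4 were higher and 1 lower past both thresholds. Their summed level was 1163 to 1195 FPKM in WT and 1616 to 1671 FPKM in β-cateninΔ(ex3)/+ livers. Among all genes tested, 8.17% were higher and 4.52% lower. The part of either marker list in the increases of the genes described here was not tested.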

How the data were processed

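Values are FPKM per gene and liver as deposited by the authors, in 1 table of 31950 genes and 6 livers. The submitters' processing notes name cutadapt 1.9, HISAT2 2.0.4, StringTie 1.3.4d, DESeq2 and edgeR; the genome build is not given in the sources used here, and 36 of the 40 genes had the start and end of GENCODE M21 (GRCm38). From the FPKM, log2(FPKM + 1) of the 13243 genes with a mean of at least 0.5 FPKM was fitted with limma 3.58.1 in R 4.3.3 (eBayes with a trend, Benjamini-Hochberg adjustment over all of them), a fit that was checked on simulated data; no count test was run, since FPKM are not counts. An adjusted p under 0.05 and a 2-fold change were required, as in the study's methods. Livers were grouped by the labels, which do not state litters or cohorts. The p-values set each group difference against the spread among these livers, with variances shrunk toward a trend over all genes. They do not cover a spread between litters or cohorts. The genes and lists were chosen with earlier results of these data known. All 41 genes are named, and of the other pathway genes the 4 with the largest increase and the 2 that fell past both thresholds; *Rara*, *Rxra*, *Rarb*, *Rbp4*, *Cyp2e1* and *Cyp26c1* were added after their values were seen. A gene of the retinoid list was left out and is not reported here. Sequences of the related copies *Rdh7*, *Rdh9* and *Rdh16*, whose changes were under 2-fold, are not shown. The alternatives were a pseudocount of 0.1, no filter, a filter at a mean of 1 FPKM, scaling by median ratios, TPM, quantile normalization, eBayes without a trend, a replicate block and each liver left out in turn. Python 3.11.15, pandas 2.3.3, numpy 2.4.6, Biopython 1.88 and matplotlib 3.10.9 served for all else.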

Additional observations from a re-analysis of the deposited data

How the results depend on the processing

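Under the 14 alternatives, 469 of 489 differences of the tested genes kept their direction and their side of the thresholds, and the number differentially expressed and higher was 8 to 9 and lower 5 to 6. *Bco2* was lost with quantile normalization, and *Cyp26b1* was not tested at a mean of at least 1 FPKM. Small differences changed sign. With median-ratio scaling *Adh5* was -0.062, *Aldh8a1* -0.046, *Aldh3a2* -0.18, *Aldh4a1* -0.12, *Aldh5a1* -0.020, *Aldh6a1* -0.16 and *Rdh7* -0.047. With quantile normalization they were -0.13, -0.094, -0.24, -0.20, -0.090, -0.21 and -0.0050 in the same order. As TPM, *Aldh3a2* was -0.057 and *Aldh6a1* -0.037. Leaving out 1 liver gave -0.0095 to 0.034 for *Aldh3a2* and -0.24 to 0.025 for *Rbp2*. These scalings moved the median of all genes from 0.14 to 0.0081 (median-ratio) and -0.020 (quantile). The 1082 higher and 598 lower of all genes became 851 and 751, or 797 and 812, and the 20 and 9 of the genes described here at any fold became 16 and 12, or 16 and 14. Without 1 liver, 25 to 29 passed at any fold. Under some alternatives *Adh5*, *Aldh8a1*, *Aldh3b1*, *Dhrs4* and *Rdh7* no longer passed at any fold, and *Aldh3a2*, *Aldh4a1*, *Aldh6a1* and *Rdh16* did. At a pseudocount of 0.1, 2705 genes were differentially expressed in place of 1680. The labels do not say whether the replicate numbers pair the livers. Deviations from the group means had correlations of 0.027, 0.021 and -0.0054 in same-numbered livers and of -0.036 to 0.012 in the other pairs. These values cannot decide on a pairing. With a replicate block 1673 genes, and again 9 higher and 6 lower of those described, were differentially expressed.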
